A study of Mus musculus with 20 samples.

Results

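The endoplasmic reticulum (ER) is the compartment in which a liver cell folds the proteins it secretes. The 44 genes described here encode the machinery of that compartment, and they were chosen by name, from textbook roles, as the sensors of the unfolded protein response, the folding enzymes, the translocation channel and the degradation machinery. Earlier results of these data were known when the genes were chosen. Every one of the 44 was found among the 26830 genes with a count. The sets are 4 sensors and their transcription factors, 11 chaperones and co-chaperones, 3 genes of the lectin folding cycle, 7 of disulfide bond formation, 5 of the oligosaccharyltransferase, 7 of the translocon and 7 of ER-associated degradation.

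Messenger RNA was measured in the right liver lobe of male CD-1 IGS mouse fetuses, an outbred strain, at embryonic day 18.5. Of the 20 fetuses, 10 came from dams under maternal nutrient restriction (MNR) and 10 from control dams, with no allele or agent named for either group. Each group held 5 litters, lettered A to E, with 2 littermates each. Counts were summed over littermates, because a diet acts through the dam; n is therefore 5 litters per group, and MNR litter A and control litter A come from different dams. How the restriction was done, and when, is left unstated by the labels used here.

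Deposited counts were 16703824 to 28016953 per MNR fetus and 14925778 to 27848100 per control fetus. Hepatocyte markers were abundant in both groups, with a summed level over 15 genes of 191939 to 228909 CPM (counts scaled to library size, with TMM factors) in MNR litters and 204378 to 236094 CPM in control litters. Erythroid markers, from the blood-forming cells of fetal liver, summed to 24009 to 31935 CPM in MNR and 23191 to 36614 CPM in control litters. B cell and plasma cell markers were low, with the sum over 10 genes at 36.5 ± 6.52 CPM in MNR and 48.6 ± 12.9 CPM in control (SD, n = 5 each). In a bulk sample, fewer cells of a type and less RNA per cell cannot be told apart.

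Proteins bound for secretion enter the ER through the Sec61 channel, receive N-linked sugars from the oligosaccharyltransferase, and are folded by chaperones, lectins and disulfide isomerases. Chains that fail are pulled back and destroyed by ER-associated degradation. When unfolded protein accumulates, the membrane sensors IRE1 (Ern1), PERK (Eif2ak3) and ATF6 (Atf6) signal to the nucleus. IRE1 cuts a short stretch out of the Xbp1 messenger, and the product, with the cleaved ATF6 fragment, switches on chaperone and degradation genes. The liver, which secretes most plasma proteins, carries a large load of this work.

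The stretch that IRE1 removes is shown because it defines the active form of Xbp1. It holds 26 bases, in capitals below, and lies inside an exon at chr11:5424285-5424310 (mm9, plus strand), shown with its flanks from chr11:5424265-5424330.
Xbp1: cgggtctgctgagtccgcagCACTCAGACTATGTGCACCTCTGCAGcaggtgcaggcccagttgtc

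The ER stress response element (ERSE), to which ATF6 binds together with the factor NF-Y, was searched for as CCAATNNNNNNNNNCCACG on both strands. The windows were RefSeq promoters (GRCm38.p6) of 250 bases before to 50 after each gene's start, which 37 of the 44 genes had. Both arms of the element are in capitals in these 4 promoters, shown because the genes belong to the chaperone, lectin and degradation steps described below. The element begins 65 bases before the start of Hspa5 (shown: chr2:34772005-34772063, plus strand), 145 before that of Canx (chr11:50325780-50325838, minus strand) and 44 before that of Syvn1 (chr19:6046512-6046570, plus strand). In Calr it lies on the strand opposite to the gene, up to 162 bases before the start (chr8:84847055-84847113, plus strand).
Hspa5: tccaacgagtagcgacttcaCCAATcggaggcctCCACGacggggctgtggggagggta
Calr: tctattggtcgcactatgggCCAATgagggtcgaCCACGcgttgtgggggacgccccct
Canx: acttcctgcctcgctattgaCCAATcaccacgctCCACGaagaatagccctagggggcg
Syvn1: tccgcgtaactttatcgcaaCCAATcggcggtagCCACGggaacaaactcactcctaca
A related arrangement, ERSE-II, was searched for as ATTGGNCCACG on both strands and begins 7 bases after the start of Dnajb11, here from chr16:22857843-22857871 (plus strand).
Dnajb11: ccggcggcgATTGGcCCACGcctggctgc

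Across the 44 genes, 1 fell in MNR livers past an adjusted p of 0.05 and 0 rose, in edgeR's quasi-likelihood test of 17573 genes (Benjamini-Hochberg adjusted). The gene that fell was Serpinh1, the collagen chaperone HSP47. Of all genes tested, 0.666% passed this threshold, 0.25% lower and 0.415% higher in MNR, and the share of 2.27% among the 44 is a single gene. Log2 fold changes of MNR over control were negative for 36 of the 44 (81.8%), against 50.6% of all genes. Their median was -0.22, from -0.51 for Hyou1 to 0.40 for Ero1l, while the median over all genes was -0.003. All 44 genes passed the filter on low counts.

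Looser criteria counted more of them, mostly lower in MNR. An unadjusted edgeR p under 0.05 was reached by 14 genes with lower and 2 with higher values in MNR (31.8% and 4.55%), where 9.69% of all genes were lower and 9.95% higher. At an adjusted p under 0.10, 6 genes counted as lower, namely Xbp1, Hyou1, Dnajb11, Creld2, Serpinh1 and Pdia4 (13.6%, against 2.16% of all genes), and 0 as higher (against 2.82%). DESeq2 at 0.05 called the same 6 and Calr lower (15.9%, against 2.99%) and called Atf6 higher (2.27%, against 4.01%), and gave Derl3 no adjusted p. MNR and control litters were fully apart for 2 of 44, Serpinh1 and Dnajb11, both lower in MNR (4.55%, against 2.23% of all genes), and for 0 in the other direction (against 2.28%). With upper-quartile scaling, 38.2% of all called genes were higher in MNR, against 62.4% with TMM, and Serpinh1 was called under both.

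**Figure D1:**
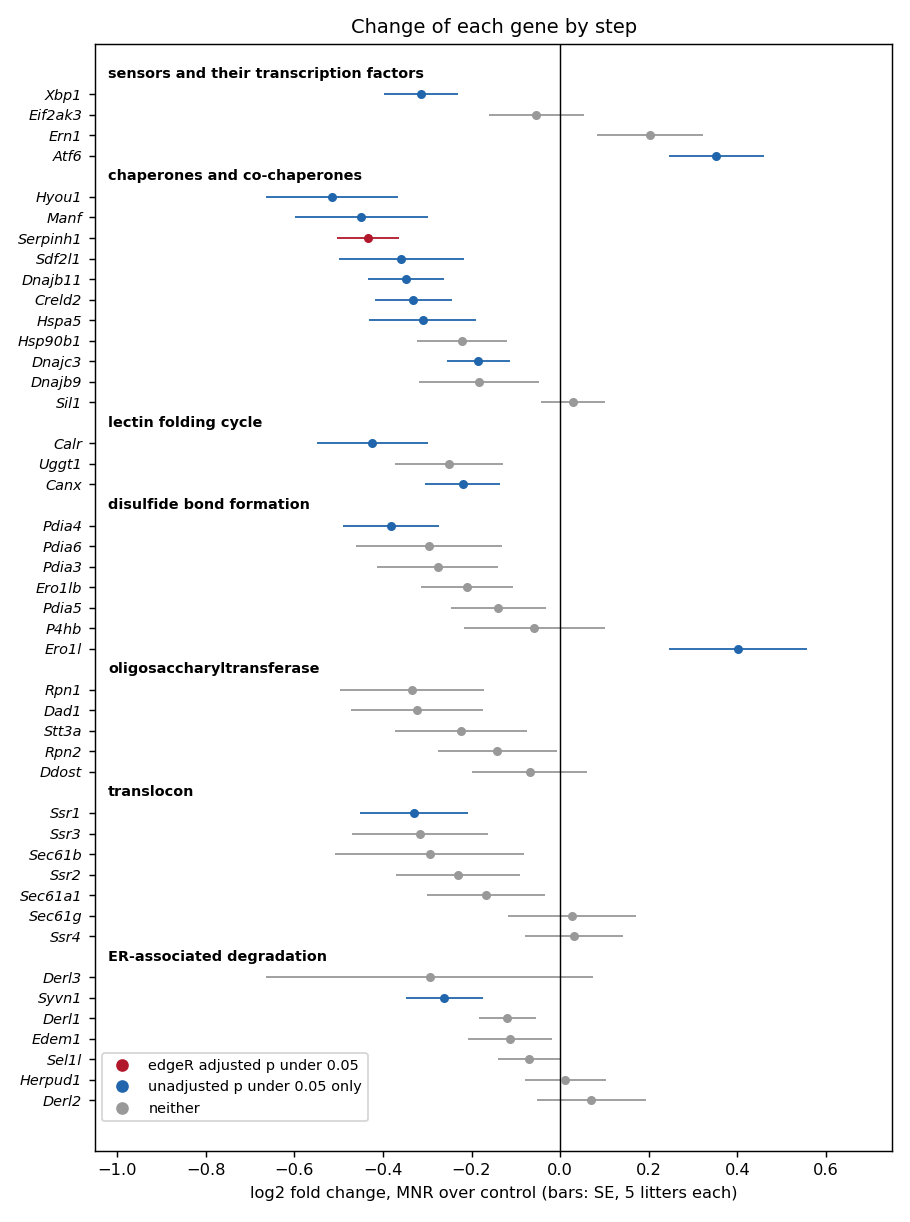
Log2 fold change of MNR over control (points, with SE bars, 5 litters per group) for the 44 genes, grouped by step and sorted within it. Serpinh1 passed an adjusted p of 0.05, 36 genes lie left of 0, and Atf6 and Ero1l lie farthest to the right.

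Among the sensors, the transcription factor Xbp1 and the sensor gene Atf6 stood on opposite sides. Xbp1 had 94.1, 104, 107, 115 and 101 CPM in MNR litters A to E, against 129, 109, 150, 134 and 128 CPM in control litters A to E. The groups overlapped only because control litter B lay below MNR litter D. The log2 fold change was -0.31 (SE 0.084, edgeR adjusted p = 0.0819).

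Atf6, a sensor that is itself the precursor of a transcription factor, reached 58.9, 48.7, 55.3, 42.6 and 68.5 CPM in MNR litters A to E. Control litters had 43.8, 44.7, 42.4, 39.3 and 44.6 CPM. Of the MNR litters, only D lay within the control range, and the MNR litters were spread more widely (SD 9.88 CPM, against 2.25 CPM in control). The log2 fold change was 0.35 (SE 0.11, edgeR adjusted p = 0.111). Atf6 passed as higher in 1 of 10 fits that left out a litter, the one without MNR litter D (edgeR adjusted p = 0.0327). That fit called 512 of all genes tested, against 117 with every litter. Over the 10 fits the adjusted p reached 0.223 and the log2 fold change lay between 0.26 and 0.43.

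Ern1, which encodes IRE1 alpha, had 54.2, 44.8, 58.0, 40.0 and 67.0 CPM in MNR litters and 46.0, 41.7, 47.7, 45.0 and 49.2 CPM in control litters. MNR litters A, C and E were above every control litter for both genes, and D was the lowest MNR litter for both. The change of Ern1 did not pass (log2 fold change 0.20, SE 0.12, edgeR adjusted p = 0.384). Eif2ak3, the gene of PERK, which slows translation, had 25.7, 22.4, 21.3, 19.1 and 23.5 CPM in MNR litters, against 22.7, 20.3, 19.6, 25.5 and 28.1 CPM in control litters. These ranges lay over each other, and the log2 fold change, -0.054 with an SE of 0.11 (edgeR adjusted p = 0.824), turned to 0.023 without control litter E.

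Of 6 Xbp1 transcripts, 1 annotated with the 26 bases and 1 without them were compared, and their counts were close to even in every litter. Of the counts on Xbp1-001 and Xbp1-201, the annotated forms with and without the stretch, Xbp1-201 held 49.2%, 49.9%, 48.2%, 49.2% and 49.2% in MNR litters and 47.0%, 47.3%, 48.6%, 50.2% and 48.9% in control litters. The difference of 0.712 percentage points had a two-sided exact permutation p of 0.302 (5 litters against 5). Of the counts on all 6 transcripts, Xbp1-201 held 24.8% to 26.8% in MNR litters and 23.9% to 26.2% in control litters. Xbp1-001 is 2129 bases long and Xbp1-201 1772, so these forms differ by more than the stretch. Reads outside the stretch can fit both forms, and how such reads were counted is unknown here. The share is therefore not a measure of splicing.

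The chaperones were the step with the lowest median, -0.33, with 10 of 11 log2 fold changes negative, 1 gene called lower and 0 called higher. At an unadjusted edgeR p under 0.05, 8 of 11 were lower in MNR. Serpinh1, which assists collagen folding and lies at chr7:106493885-106501740 (mm9, minus strand), had 38.3, 47.5, 44.5, 48.5 and 46.1 CPM in MNR litters A to E. Control litters had 58.9, 56.4, 66.8, 61.8 and 59.8 CPM. Every MNR litter lay below every control litter. Serpinh1 fell by 26.0%, to 45.0 ± 4.01 CPM in MNR, against 60.8 ± 3.89 CPM in control (log2 fold change -0.43, SE 0.071, edgeR adjusted p = 0.0286, 5 litters each). The call held in 2 of 10 fits that left out a litter, without MNR litter D or control litter B (adjusted p = 0.0141 in each). It was lost without any other single litter, MNR A, B, C or E and control A, C, D or E, at edgeR adjusted p-values of 0.0534 to 0.0834. Of all genes tested, the fits that lost it called only 0 to 30. The fit without MNR litter D called 512 and that without control litter B 843. Its log2 fold change stayed between -0.46 and -0.38 in these 10 fits.

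Serpinh1 is made by collagen-producing cells, and markers of stellate cells and fibroblasts stood lower in the same livers. All 10 of these markers had negative log2 fold changes, 0 of them past an adjusted p of 0.05 in edgeR and 3 at an unadjusted p under 0.05, with a median of -0.22. They ran from -0.53 for Lrat to -0.024 for Dcn, which hardly moved (101 ± 4.71 CPM in MNR, 103 ± 18.1 CPM in control). Pdgfrb had the smallest p (log2 fold change -0.32, edgeR adjusted p = 0.0946). Their summed level was 593 to 785 CPM in MNR litters and 644 to 878 CPM in control litters (two-sided exact permutation p = 0.159, adjusted over 10 marker lists 0.397). Lrat, the retinol-esterifying enzyme of stellate cells, was at 13.1 ± 2.88 CPM in MNR and 19.0 ± 4.72 CPM in control (edgeR adjusted p = 0.137), and Col1a1, a collagen chain, at 109 ± 22.2 CPM in MNR and 131 ± 31.2 CPM in control (edgeR adjusted p = 0.457). The level of these markers was also added as a term of the edgeR model, an alternative chosen after seeing the data. With the term, Serpinh1 had a log2 fold change of -0.35 and an edgeR adjusted p of 0.132. Of all genes tested, 4 then passed, against 117 without the term. The median log2 fold change of the 44 genes was then -0.14, against -0.22 without the term, with 33 negative, against 36. At an unadjusted p under 0.05, 7 were lower and 1 higher with the term, against 14 and 2 without it. Over all 17573 genes, in either direction, 2931 reached that p with the term and 3452 without it. The part of stellate cells and fibroblasts in the change of Serpinh1 was not tested.

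Dnajb11 and Hspa5 work as a pair, a co-chaperone and the ER chaperone BiP. Dnajb11 was at 42.0, 45.4, 39.4, 40.0 and 44.4 CPM in MNR litters and at 47.7, 46.7, 52.0, 61.1 and 61.2 CPM in control litters. The groups did not overlap, but the highest MNR litter and the lowest control litter lay close together. Its log2 fold change was -0.35 (SE 0.086, edgeR adjusted p = 0.0721). Hspa5 had 563, 622, 450, 529 and 555 CPM in MNR litters A to E, against 588, 546, 654, 831 and 750 CPM in control litters A to E. Control litters A and B lay within the MNR range, and control litters D and E were far above the rest. The log2 fold change of Hspa5 was -0.31 (SE 0.12, edgeR adjusted p = 0.189).

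Of the other chaperones, Hyou1, an exchange factor of BiP, had the lowest log2 fold change of all 44 genes, with 62.7 to 81.5 CPM in MNR litters and 72.5 to 130 CPM in control litters (-0.51, SE 0.15, edgeR adjusted p = 0.0987). Manf, a secreted ER stress protein, had 37.7 to 46.2 CPM in MNR and 39.3 to 78.1 CPM in control litters (log2 fold change -0.45, edgeR adjusted p = 0.137). Creld2, Sdf2l1, Dnajc3, Hsp90b1 and Dnajb9 had log2 fold changes of -0.33, -0.36, -0.18, -0.22 and -0.18. Sil1, another exchange factor of BiP, was the exception at 0.028, with 26.5 ± 1.75 CPM in MNR and 26.0 ± 2.39 CPM in control. Hyou1 and Sil1 both let BiP release its nucleotide, and they stood at the opposite ends of this step. Exons of Manf and of Hsp90b1 overlap other genes.

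**Figure D2:**
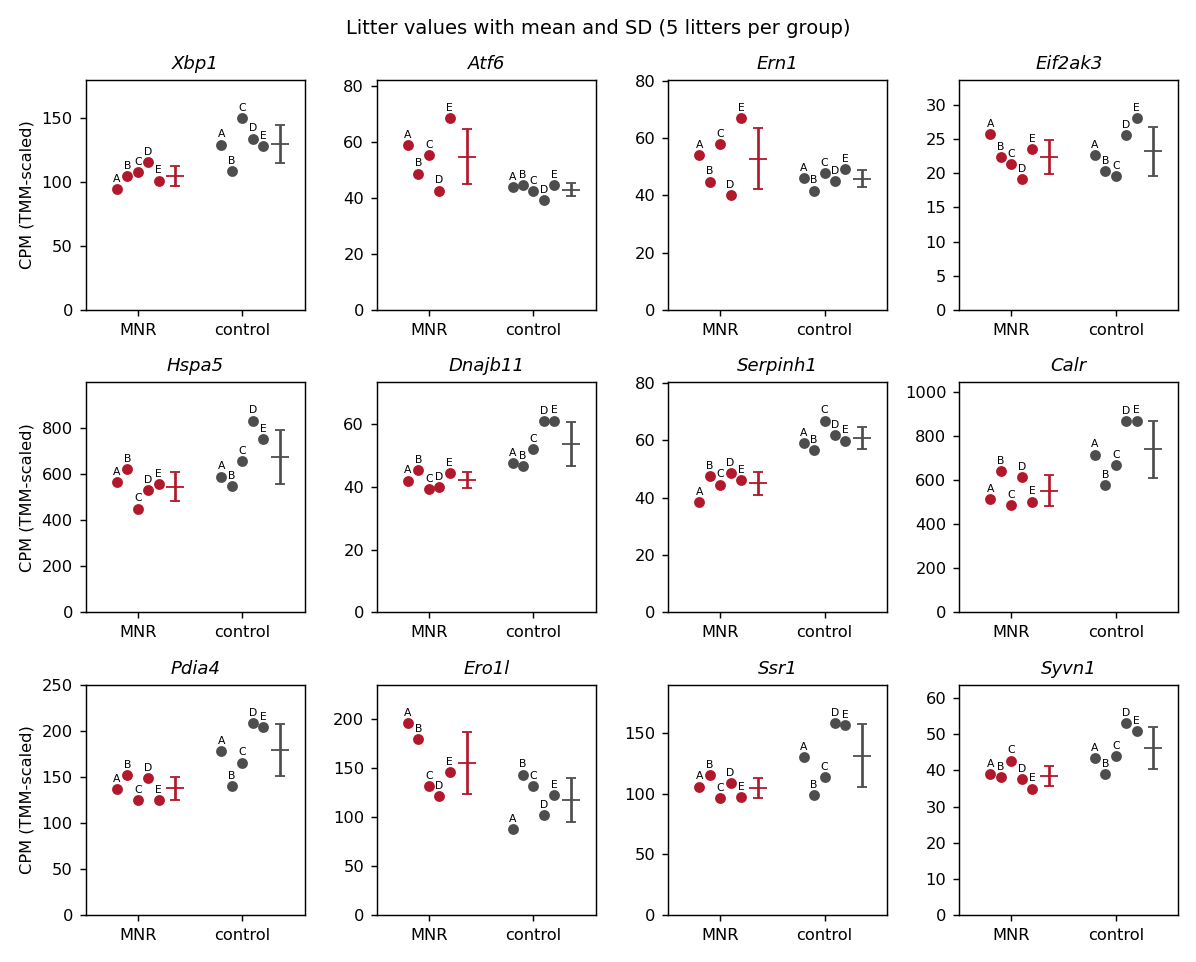
CPM of 12 genes in each litter (points, lettered A to E), with mean and SD beside them, MNR left and control right. MNR litters lie below all control litters for Serpinh1 and Dnajb11, and control litters D and E lie at the top for Hspa5, Calr, Pdia4 and Ssr1.

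The lectin cycle retains glycoproteins until they are folded, and its 3 genes all had negative log2 fold changes, with 0 called in edgeR, 2 at an unadjusted p under 0.05 (Calr and Canx) and 1 in DESeq2 (Calr). Calr, which encodes calreticulin, had 515, 641, 486, 615 and 503 CPM in MNR litters and 717, 576, 669, 867 and 871 CPM in control litters. Only control litter B fell within the MNR range. The log2 fold change was -0.42 (SE 0.12, edgeR adjusted p = 0.104). Canx, the membrane-bound partner calnexin, was at 312, 333, 295, 316 and 303 CPM in MNR litters, against 355, 306, 336, 411 and 408 CPM in control litters. Again control litter B alone lay within the MNR range, and the log2 fold change was -0.22 (SE 0.085, edgeR adjusted p = 0.184). Uggt1, which marks unfolded glycoproteins for another round, had a log2 fold change of -0.25 with overlapping litters.

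In disulfide bond formation, 6 of 7 log2 fold changes were negative and Ero1l was the exception. In edgeR 0 were called and Pdia4 and Ero1l had an unadjusted p under 0.05, while DESeq2 called Pdia4. Pdia4, a disulfide isomerase, had 137, 152, 125, 149 and 125 CPM in MNR litters and 178, 140, 166, 209 and 204 CPM in control litters. Control litter B was the only control litter inside the MNR range (log2 fold change -0.38, SE 0.11, edgeR adjusted p = 0.0952). Its exons overlap Mir704 on the same strand by 14 bases. Ero1l, the oxidase that recharges the isomerases, had 196, 179, 131, 121 and 146 CPM in MNR litters, against 87.5, 143, 131, 102 and 122 CPM in control litters. MNR litters A and B were highest and control litter A lowest, with the other litters mixed (log2 fold change 0.40, SE 0.16, edgeR adjusted p = 0.188). Its paralog Ero1lb had a log2 fold change of -0.21. P4hb, the founding disulfide isomerase and a subunit of collagen prolyl hydroxylase, had -0.058, with 848 to 1263 CPM in MNR and 855 to 1376 CPM in control litters. Pdia3, Pdia5 and Pdia6 had log2 fold changes of -0.28, -0.14 and -0.30, and exons of Pdia3 and Pdia6 overlap genes on the opposite strand.

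The oligosaccharyltransferase subunits had 5 of 5 negative log2 fold changes, with 0 called in edgeR, 0 at an unadjusted p under 0.05 and 0 in DESeq2. Dad1, a small subunit, was at 40.9, 47.1, 36.8, 48.3 and 37.1 CPM in MNR litters and at 49.7, 38.6, 43.7, 66.3 and 64.5 CPM in control litters. Rpn1, which encodes ribophorin I, had 122, 135, 101, 130 and 101 CPM in MNR litters, against 143, 105, 120, 196 and 180 CPM in control litters. For both genes control litters D and E were the highest and control litters B and C lay among the MNR litters. The log2 fold changes were -0.32 for Dad1 (SE 0.15, edgeR adjusted p = 0.255) and -0.33 for Rpn1 (SE 0.16, edgeR adjusted p = 0.28). The catalytic subunit Stt3a had -0.22, Rpn2 -0.14 and Ddost -0.068, and exons of Rpn2 overlap a gene on the opposite strand by 242 bases.

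The translocon step had 5 of 7 negative log2 fold changes and 0 called in edgeR or DESeq2, with Ssr1 at an unadjusted edgeR p under 0.05. Ssr1 encodes a subunit of the translocon-associated complex and had 106, 115, 96.4, 109 and 97.1 CPM in MNR litters and 130, 98.7, 114, 158 and 157 CPM in control litters. Ssr3, a further subunit, had 195, 217, 164, 194 and 185 CPM in MNR litters, against 208, 188, 183, 310 and 299 CPM in control litters. Control litters D and E were above every other litter for both genes, and control litters B and C lay within the MNR range for both. Log2 fold changes were -0.33 for Ssr1 (SE 0.12, edgeR adjusted p = 0.168) and -0.32 for Ssr3 (SE 0.15, edgeR adjusted p = 0.278). The channel subunits Sec61a1, Sec61b and Sec61g had -0.17, -0.29 and 0.027, and Ssr2 and Ssr4 had -0.23 and 0.032.

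ER-associated degradation had a median log2 fold change of -0.11, the nearest to 0 after the sensors at 0.074, with 5 of 7 negative, 0 called in edgeR or DESeq2, and Syvn1 at an unadjusted edgeR p under 0.05. Syvn1, the ubiquitin ligase HRD1, had 38.9, 38.2, 42.7, 37.5 and 34.9 CPM in MNR litters and 43.4, 39.0, 43.95, 53.1 and 50.9 CPM in control litters. Only control litter B lay inside the MNR range (log2 fold change -0.26, SE 0.086, edgeR adjusted p = 0.132). Exons of Syvn1 overlap Mrpl49 on the opposite strand by 83 bases, and those of Derl2 overlap Mis12 by 231 bases. Derl1, a membrane channel component, had 87.0, 83.9, 84.7, 84.2 and 96.4 CPM in MNR litters, against 90.6, 85.4, 96.2, 100 and 101 CPM in control litters. MNR litter E stood apart from the other MNR litters (log2 fold change -0.12, SE 0.064, edgeR adjusted p = 0.328). Sel1l, the partner of HRD1, and Edem1, a mannosidase-like lectin, had -0.070 and -0.11. Herpud1, an ER membrane protein induced by stress, was at 186 ± 13.2 CPM in MNR and 184 ± 24.9 CPM in control (log2 fold change 0.012, edgeR adjusted p = 0.957). Derl2 and Derl3 had log2 fold changes of 0.071 and -0.29, but Derl3 was near the limit of detection at 0.418 ± 0.177 CPM in MNR and 0.509 ± 0.235 CPM in control.

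Scaled to the length of each gene's merged exons, the most abundant products were the same kinds of proteins in both groups, and the sensors were among the lowest. P4hb led at 738 ± 123 TPM (a level scaled to that length and library size) in MNR and 771 ± 162 TPM in control, a level whose groups overlap widely. Calr followed at 391 ± 39.0 TPM in MNR and 526 ± 88.1 TPM in control, and Hspa5 at 317 ± 33.8 TPM in MNR and 393 ± 68.3 TPM in control. Serpinh1 stood at 37.7 ± 2.35 TPM in MNR and 51.1 ± 4.04 TPM in control. Atf6, Ern1 and Eif2ak3 had 15.1 ± 2.99, 13.3 ± 2.93 and 8.47 ± 1.15 TPM in MNR, and 11.8 ± 0.5, 11.5 ± 0.687 and 8.75 ± 1.22 TPM in control. Xbp1, by contrast, reached 65.7 ± 3.74 TPM in MNR and 81.8 ± 10.4 TPM in control. How reads that fit several transcripts were counted is unknown here. That limits comparisons between genes, such as Xbp1 with 6 transcripts and Atf6 with 1.

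Many of the 44 genes were highest or lowest in the same few litters. Control litter D was the highest of the 10 litters for 20 of 44 genes and control litter E for 13, while MNR litter C was the lowest for 16. The mean level over the 44 genes, as log2 CPM centred on each gene's mean over 10 litters, was -0.098, 0.038, -0.19, -0.034 and -0.15 in MNR litters A to E. In control litters A to E it was -0.012, -0.14, -0.019, 0.31 and 0.30. Control litters A, B and C lay within the range of the MNR litters, and control litters D and E above it.

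Spread within the control group was wider for these genes than for genes in general. Over the 44 genes, the median between-litter SD of log2 CPM was 0.162 in MNR and 0.242 in control, against 0.151 in MNR and 0.158 in control over all 17573 genes. Littermates of control litter E differed, at 0.097 and 0.47 on the centred scale, and those of control litter D were at 0.38 and 0.20. Without control litter D or E the median log2 fold change of the 44 genes was -0.16 in each case. In edgeR 0 of the 44 were then called, in fits that called 2 of all genes without D and 0 without E. At an unadjusted p under 0.05, 10 of the 44 were lower and 1 higher without control litter D, and 9 lower and 2 higher without E. Over all genes, in either direction, 2950 of 17696 reached that p without D and 3102 of 17776 without E. Without control litter B the median was -0.28 and 10 of the 44 were called lower. That fit called 2.36% of all genes lower, against 0.25% with every litter. The 10 were Xbp1, Hyou1, Dnajb11, Manf, Creld2, Serpinh1, Calr, Pdia4, Ssr1 and Syvn1.

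**Figure D3:**
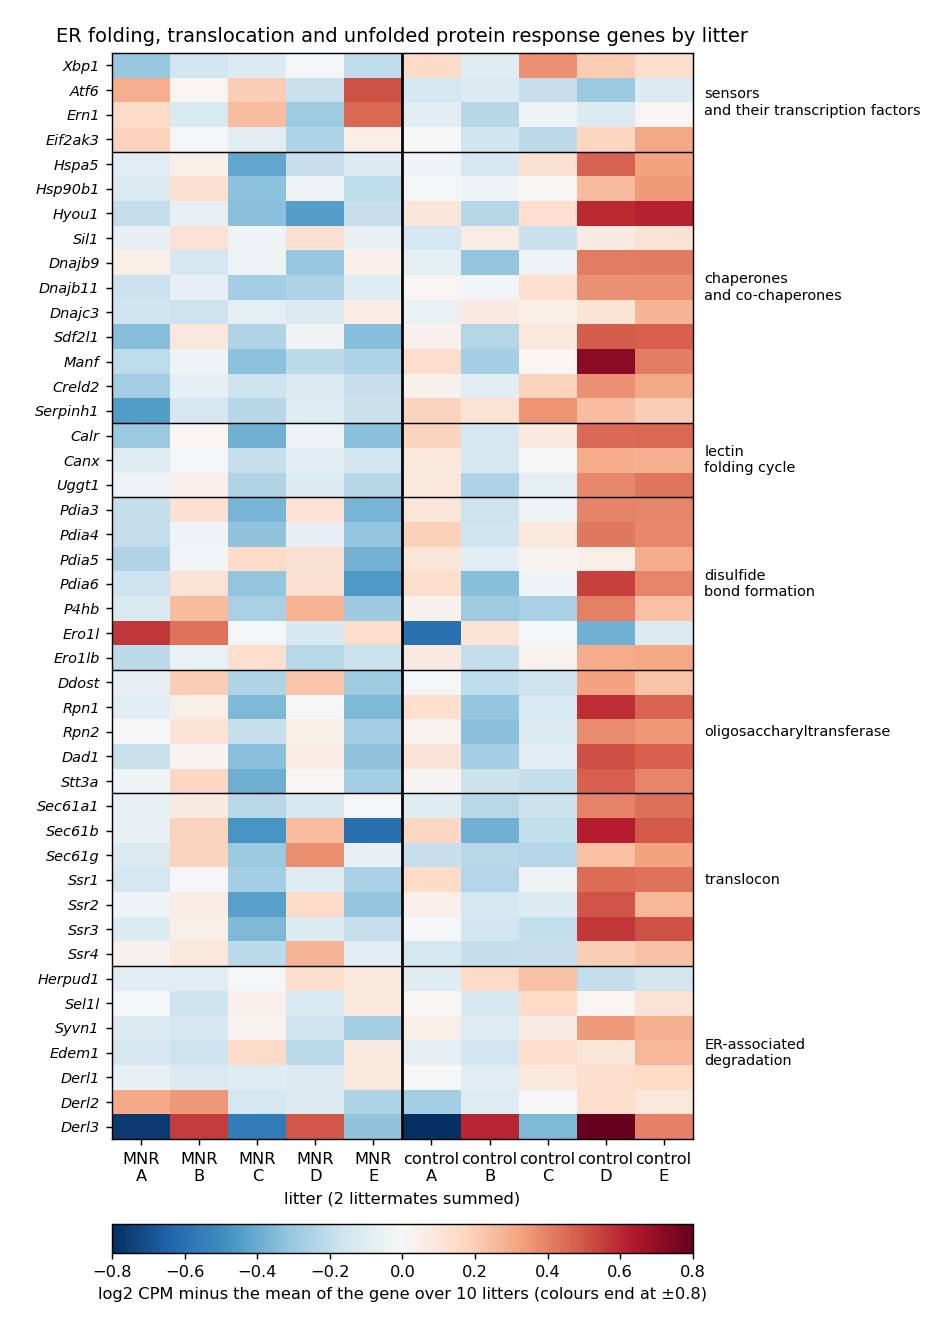
Log2 CPM of the 44 genes (down) in the 10 litters (across, MNR left, control right), centred on each gene's mean, red above and blue below it. Control litters D and E are red for most genes, and MNR litters A, C and E are red for Atf6 and Ern1 while blue for most folding genes.

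The steps did not share a single order of litters. In MNR litters A to E the centred mean of the translocon genes was -0.068, 0.087, -0.32, 0.10 and -0.22, and that of the oligosaccharyltransferase -0.076, 0.11, -0.30, 0.067 and -0.30. That of the sensors was 0.081, -0.069, 0.062, -0.18 and 0.20 in the same litters. MNR litters B and D were thus high for the translocation and sugar transfer genes and low for the sensors. For the chaperones every MNR litter was below 0, from -0.22 to -0.025, while control litters were at 0.016, -0.097, 0.081, 0.37 and 0.35.

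**Figure D4:**
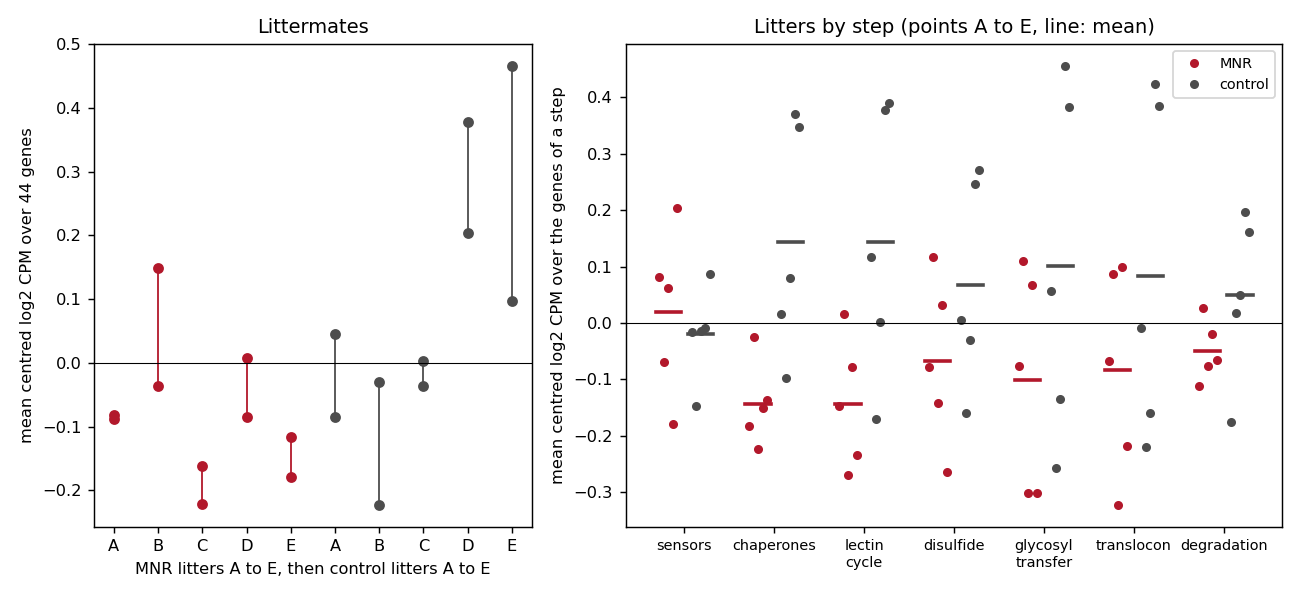
Left, the mean centred log2 CPM over the 44 genes in each fetus, with littermates joined by a line and MNR litters left of control litters; right, the same mean by step for each litter, with MNR left of control in each step and the group mean as a line. On the left, the fetuses of control litter D stand at 0.38 and 0.20 and those of control litter E at 0.097 and 0.47. On the right, every MNR litter lies below 0 for the chaperones.

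Levels of other cell types were set beside the litter pattern. Erythroid markers were highest in control litters D (36614 CPM) and A (34263 CPM), while control litter E (29121 CPM) lay below MNR litters B (31935 CPM) and D (30457 CPM). With the erythroid level as a term of the edgeR model the median of the 44 genes was -0.18 and Serpinh1 was still called (adjusted p = 0.0381). Pancreatic acinar transcripts, from cells rich in ER, summed to 322 CPM in control litter B and to 17.6 to 25.8 CPM in the other control litters, against 27.7 to 156 CPM in MNR litters. Almost all of the control litter B signal came from fetus 1, at 652 CPM. Control litter B was the lowest control litter for the 44 genes, with fetus 1 at -0.030 and fetus 2 at -0.22 on the centred scale, and the acinar sum of fetus 2 was 27.2 CPM. Without fetus 1 the median log2 fold change of the 44 genes was -0.21 and Serpinh1 was still called (edgeR adjusted p = 0.0391). Neutrophil markers summed to 2648 to 3856 CPM in MNR and 2398 to 2806 CPM in control litters (two-sided exact permutation p = 0.0317, adjusted 0.159), and megakaryocyte markers to 233 to 271 CPM in MNR and 212 to 263 CPM in control litters (exact permutation p = 0.0159, adjusted 0.159). The part of these 2 cell types in the results was not tested.

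The ERSE letters were found in 10 of the 37 promoter windows (27.0%), against 37 of 27025 genes with a window (0.137%). The genes that hold them are Calr, Canx, Creld2, Derl3, Dnajc3, Ero1lb, Hsp90b1, Hspa5, Pdia6 and Syvn1. The log2 fold change was negative for all 10, from -0.42 for Calr to -0.18 for Dnajc3, with a median of -0.28 and 0 called in edgeR. Calr, Canx, Creld2, Dnajc3, Hspa5 and Syvn1 had an unadjusted edgeR p under 0.05, and DESeq2 called Calr and Creld2. Of the 27 genes with a window and no match, 21 were negative, with a median of -0.18. These 10 genes come from the chaperone, lectin, disulfide and degradation steps, so the letters and the step are not separate descriptions.

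Outside the 44, another 27 genes hold the ERSE letters, and 12 of them were tested. Of these, 10 had a negative log2 fold change, 0 were called in edgeR (Alg12 and Hnrnpa3 at an unadjusted p under 0.05), and the median was -0.11. Alg12, a mannosyltransferase that builds the N-glycan precursor, was one of them, at 5.76 ± 0.0735 CPM in MNR and 7.19 ± 0.682 CPM in control, with litters that did not overlap (log2 fold change -0.32, edgeR adjusted p = 0.0674). ERSE-II was found in 2 of the 37 windows, Dnajb11 and Herpud1 (5.41%, against 0.0444% of all genes), whose log2 fold changes were -0.35 and 0.012. The XBP1-binding letters TGACGTGG, searched on both strands, were in 0 of 37 windows and in 0.714% of all genes. The letters CCAAT alone, part of ERSE and on one strand or the other part of ERSE-II, were in 28 of 37 windows (75.7%) and in 41.1% of all genes.

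**Figure D5:**
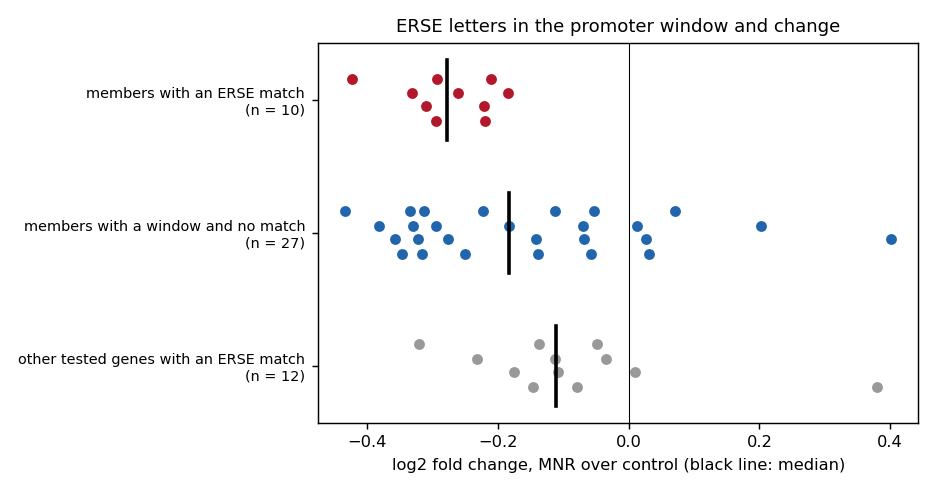
Log2 fold change of MNR over control for genes by the ERSE letters in their promoter window; points are genes and black lines medians. All 10 genes of the set with a match lie left of 0 (median -0.28), as do 10 of the other 12 tested genes with a match (median -0.11), and the 27 without a match reach from -0.43 to 0.40.

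Other genes of the same pathways, 136 in 7 lists drawn up from textbook roles, were read from the same edgeR fit, and 135 could be tested. These lists, too, were drawn up with earlier results of these data known. Of these 135 genes, 0 fell and 1 rose past an adjusted p of 0.05, where 0.25% of all genes fell and 0.415% rose. At an unadjusted p under 0.05, 29 were lower and 7 higher (21.5% and 5.19%, against 9.69% and 9.95% of all genes). Log2 fold changes were negative for 94 (69.6%, against 50.6% of all genes), and the median was -0.055. The gene that rose was Cebpb, a transcription factor, at 37.2 ± 3.83 CPM in MNR and 26.4 ± 2.29 CPM in control (log2 fold change 0.49, SE 0.081, edgeR adjusted p = 0.0286), with no overlap of litters.

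Among the lists nearest to the 44 genes, other N-glycosylation genes had 19 of 23 negative values and a median of -0.14, and other translocation genes 15 of 17 and -0.13. Alg14, which adds an early sugar of the glycan precursor, was at 6.90 ± 0.641 CPM in MNR and 9.10 ± 0.882 CPM in control without overlap (log2 fold change -0.40, edgeR adjusted p = 0.0587). Tram2, a translocation-associated membrane protein, went the other way without overlap, at 102 ± 9.57 CPM in MNR and 72.1 ± 12.3 CPM in control (log2 fold change 0.50, edgeR adjusted p = 0.0608), and Srprb, of the signal recognition particle receptor, had -0.30 (edgeR adjusted p = 0.175). Other ER folding and disulfide genes had 19 of 25 negative values, led by Fkbp14, a prolyl isomerase that acts on collagen, at 4.18 ± 0.132 CPM in MNR and 5.78 ± 0.994 CPM in control (edgeR adjusted p = 0.0721). Tmx4, a membrane-bound thioredoxin-like protein, had a log2 fold change of 0.22 in that list (edgeR adjusted p = 0.121).

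Other degradation genes were split, 11 of 18 negative with a median of -0.031, and Vcp, the ATPase that extracts proteins from the ER, had -0.22 (edgeR adjusted p = 0.105), with Faf2, its membrane recruiter, at -0.14 (edgeR adjusted p = 0.225). Other ER stress regulators were even, 7 of 14 negative, with Yipf5, a membrane protein of the early secretory pathway, at -0.34 (edgeR adjusted p = 0.0743) and Creb3l1, an ER-bound transcription factor, at -0.40 (edgeR adjusted p = 0.138). In the ATF4 and CHOP arm, which lies downstream of PERK, 5 of 14 tested genes were negative and the median was 0.13. Atf4 itself had 85.1 ± 12 CPM in MNR and 103 ± 9.10 CPM in control (log2 fold change -0.27, edgeR adjusted p = 0.147), and Ddit3, which encodes CHOP, had 7.82 ± 1.54 CPM in MNR and 8.14 ± 1.5 CPM in control (log2 fold change -0.056, edgeR adjusted p = 0.875). Among chaperones of the cytosol and mitochondria, 18 of 24 were negative with a median of -0.088, and the highest log2 fold change was 1.04. At an unadjusted edgeR p under 0.05, 4 were lower and 1 higher. Litters did not overlap for 1 gene of this list, which was higher in MNR. Hsp90aa1 and Stip1, a chaperone and its co-chaperone, had -0.32 (edgeR adjusted p = 0.0937) and -0.26 (edgeR adjusted p = 0.112).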

How the data were processed

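The deposited files used here hold counts per transcript, raw whole numbers in 1 table per fetus. The tools named, per the submitters' processing notes, are Bowtie2, FastQC, edgeR and DESeq2, with the build mm9. Their roles and versions, the counting tool, the use of strand and the treatment of reads that fit several transcripts remain not given in the sources used here. Libraries were made with a strand-preserving kit, per the labels' protocols. Members were matched by symbol, and they and all gene lists were chosen with earlier results of these data known. A gene table of the whole series was not used here.

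Transcript counts were summed to genes with the annotation of that build, leaving out 0.0788% to 0.154% of counts, and then over the 2 littermates, giving 5 MNR and 5 control litters. Genes passed filterByExpr (minimum count 10), were scaled by TMM and tested with edgeR 4.0.16 (quasi-likelihood, two-sided, R 4.3.3), with Benjamini-Hochberg adjustment over 17573 genes and a threshold of 0.05. Log2 levels use a prior count of 2. TPM uses the union of a gene's exons. Summed marker levels were compared by exact permutation over 252 splits (smallest p 0.00794). The procedure was tested on simulated counts. P-values measure the spread between litters.

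Litter values are given for Xbp1, Atf6, Ern1, Eif2ak3 and Hspa5, for the 2 genes of smallest p in each step, and for any gene past the threshold. Of each further list up to 2 genes of smallest p are named. Ddit3, Hyou1, Manf, Sil1, P4hb, Herpud1 and Derl3 were given levels after their values were seen. Of the stellate and fibroblast markers, Lrat, Col1a1, Dcn and Pdgfrb are named outside these rules. Alternatives were DESeq2 1.42.0, limma 3.58.1 with the litter as a random effect, other scalings, filters and thresholds, marker levels as covariates, and leaving out litters or fetuses. No pair of fetuses of a group agreed within sampling noise (90 pairs, chi-square per degree of freedom 9.78 to 79.1).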

Additional observations from a re-analysis of the deposited data

Results flagged for a closer look

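Among 108 sets of 5 litter values tested for a litter that stands apart, 4 were found, where chance gives about 1 in 20. Derl1 was at 96.4 CPM in MNR litter E, with the other MNR litters at 83.9 to 87.0 CPM. Pancreatic acinar transcripts summed to 322 CPM in control litter B, with the other control litters at 17.6 to 25.8 CPM. Neutrophil markers summed to 3856 CPM in MNR litter B, with the other MNR litters at 2648 to 2906 CPM. Megakaryocyte markers summed to 233 CPM in MNR litter D, with the other MNR litters at 263 to 271 CPM.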

How the results depend on the processing

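The median log2 fold change of the 44 genes was negative under every alternative run, from -0.28 to -0.14 (-0.14 with the stellate term), but the number of calls was not stable. Against 117 genes, 1 of the 44 lower and 0 higher, the fetuses as separate libraries gave 2301, 12 and 2. That fit called 6.66% of all genes lower. It takes littermates as independent replicates of a diet given to the dam, so its p-values do not measure the spread between litters. Limma-voom with the litter as a random effect gave 1088, 7 and 1, and DESeq2 1113, 7 and 1. Fetus 1 of each litter alone gave 0 genes (1699 at an unadjusted edgeR p under 0.05) and 0 of the 44; fetus 2 alone gave 499, with 2 lower. A threshold of 0.10 gave 875 with 6 lower, and upper-quartile scaling 178. Leaving out the fetus over 10 times the median pancreatic level gave 296. Chosen after seeing the data, leaving out the 3 fetuses highest in it gave 215, and the stellate marker level as a term gave 4 genes and 0 of the 44. Leaving out a litter gave 0 to 843 genes, 0 to 10 of the 44 lower and 0 to 1 higher. The causes were not tested. Eif2ak3 had -0.11 to 0.023 over those fits. Differences in summed markers that changed sign ranged from -3.99% to 0.264% for hepatocytes (0.0745% without control litter E), -39.7% to 220% for pancreas, -8.33% to 0.276% for bile duct and -1.44% to 4.71% for endothelium. Same-lettered MNR and control litters correlated at -0.0093 to 0.18 in their deviations. Litters of different letters were not compared, so whether the letters pair the groups cannot be told from these values. The letter as a replicate block gave 232 genes, with Serpinh1 again the 1 of the 44. At these depths only Derl3 was near the limit of detection.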
